A study of Mus musculus with 12 samples.

Results

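The Notch pathway was described here by 10 genes in subcutaneous Renca tumors: the receptors Notch1, Notch2, Notch3 and Notch4, the ligands Dll1, Dll4, Jag1 and Jag2, and the targets Hes1 and Hey1. They were chosen by name among the rows of the deposited table. All 10 were found among its 14496 genes and all 10 passed the filter for testing, which kept 14008 genes. The table holds only genes with at least 1 CPM (reads relative to library size) in at least 2 of the 12 tumors, so that the presence of the 10 genes above this level is a consequence of how they were chosen. Renca is a mouse renal carcinoma cell line, grown here in BALB/C mice. In the IK group, 6 subcutaneous tumors grew while a second tumor was present in the kidney, and in the SC group 6 subcutaneous tumors grew with none there. All 12 were Renca tumors harvested on day 14 after inoculation, and RNA came from the whole tumor, cancer cells and stroma together. The labels give no sex or age of the mice and do not state how many mice carried them. The p-values therefore speak only of the variation among these 12 samples, part of which may be technical.

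Notch receptors are cut when a Delta or Jagged ligand on a neighboring cell pulls on them. The freed intracellular part enters the nucleus and, with the DNA-binding protein RBPJ, switches on targets such as Hes and Hey genes, which encode transcriptional repressors. In tumors the pathway is best known from blood vessels, where DLL4 restrains sprouting, NOTCH4 is mainly a receptor of endothelial cells, and NOTCH3 is the receptor of pericytes and smooth muscle, the mural cells of the vessel wall.

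The tumors gave 53312559 to 66142468 recovered reads each. Of the 6 epithelial markers of the cancer cells, 5 were high in all 12 tumors, from Krt8 at 9.88 to 10.12 log2 CPM down to Pax8 at 6.39 to 6.91. Epcam was low, at 1.57 to 2.55 log2 CPM. All 10 endothelial, all 9 mural and all 8 fibroblast markers were in the table, and 0 of 5 keratinocyte markers were. The endothelial score differed by -0.11 between the groups, less than the spread between tumors of a group. SC replicate 5 had the highest endothelial score (mean log2 CPM over the markers, 4.88), SC replicate 6 had the lowest (4.06), and IK replicate 2 stood apart by a high T cell score (3.46).

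Notch2 was by far the most abundant member. Levels of different genes were compared as CPM per kilobase of exon. Notch2 had a median of 27.8 CPM per kilobase over the 12 tumors, 4.81 times that of the next gene, Hes1. Hes1 followed at 5.79, Notch1 at 4.85, Notch4 at 2.77, Jag1 at 2.44, Dll4 at 2.34 and Notch3 at 2.16. Jag2 at 0.871, Hey1 at 0.755 and Dll1 at 0.328 CPM per kilobase were the lowest. Among tested genes with an exon length, Notch2 stood at the 85.2 percentile of level and Dll1 at the 3.15 percentile.

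Some neighbors in this order could not be separated. Jag1 exceeded Dll4 in 7 of the 12 tumors, and Dll4 exceeded Notch3 in 9. Hes1 exceeded Notch1, and Jag2 exceeded Hey1, in 10 of 12. Notch2 exceeded Hes1, Notch1 exceeded Notch4, and Notch3 exceeded Jag2 in all 12. Exon lengths came from a newer annotation than the one behind the counts. With the shorter exon set of its basic version the order was unchanged, but the distances were smaller at the top. Notch1 then stood at 7.27 and Hes1 at 8.03 CPM per kilobase, against 28.6 for Notch2.

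**Figure D1:**
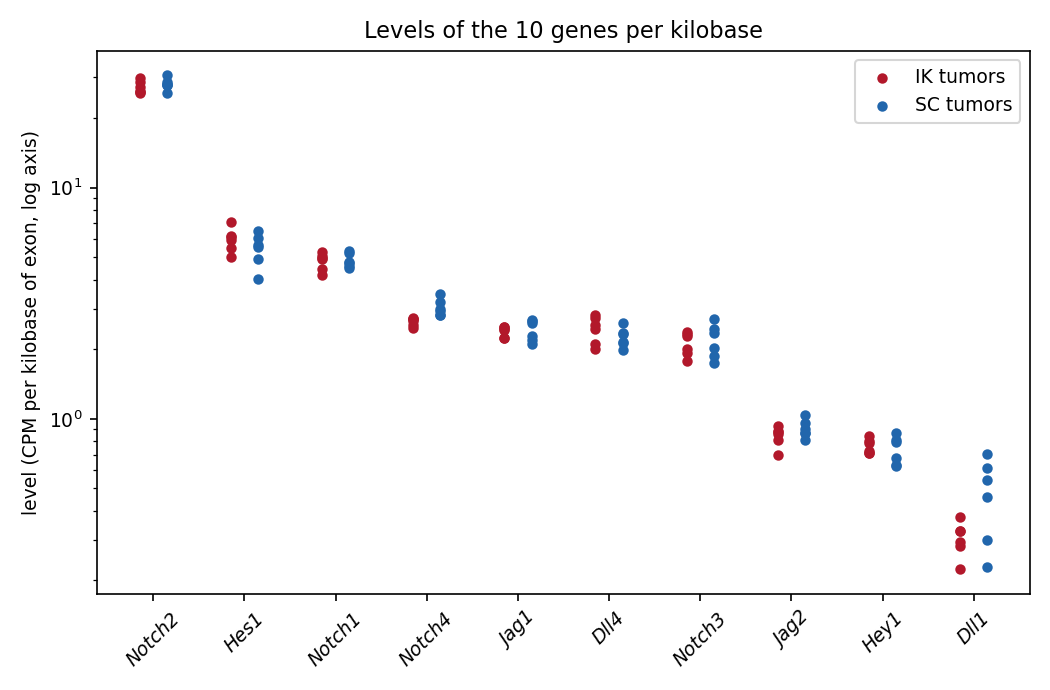
Level of each gene in each tumor, in CPM per kilobase of exon on a log axis, with IK tumors in red to the left and SC tumors in blue to the right. Notch2 lies alone at the top (median 27.8) and Dll1 at the bottom (median 0.328), where the SC tumors spread most.

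Within the receptors, Notch2 made up a median of 73.5% of the summed per-kilobase level in IK tumors and 73.8% in SC tumors. Notch1 made up 13.1% in IK tumors and 12.50% in SC tumors, and Notch4 7.0% in IK tumors against 7.6% in SC tumors. All shares here rest on the full exon set and were not computed for the basic version. In that version Notch1 stood higher against Notch2, as given above. Ligands were more evenly divided. Dll4 had a median share of 41.2% in IK tumors and 37.8% in SC tumors, and Jag1 of 41.0% in IK tumors and 40.0% in SC tumors. Dll1 held 5.0% in IK tumors and 8.1% in SC tumors.

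The sequences shown here are the 250 bases before the annotated start of the 3 members on which the results below turn: Notch4, whose groups did not overlap, Dll1, which varied most between tumors, and Notch3, which followed the mural markers. They were taken from RefSeq on build GRCm38.p6 and are written 5′ to 3′ on the strand of the gene. Capitals mark matches to CACNAG, the N box bound by HES repressors, on either strand. Of the 10 members, 8 had such a window in the table used, and Dll1 had a pair.
Notch4, chr17:34564045-34564294, plus strand: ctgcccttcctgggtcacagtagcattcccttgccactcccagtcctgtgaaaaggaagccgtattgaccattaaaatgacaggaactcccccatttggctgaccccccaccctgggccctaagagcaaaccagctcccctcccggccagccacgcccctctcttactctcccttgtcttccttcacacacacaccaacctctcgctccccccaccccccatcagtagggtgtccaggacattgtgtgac
Dll1, chr17:15376933-15377182, minus strand: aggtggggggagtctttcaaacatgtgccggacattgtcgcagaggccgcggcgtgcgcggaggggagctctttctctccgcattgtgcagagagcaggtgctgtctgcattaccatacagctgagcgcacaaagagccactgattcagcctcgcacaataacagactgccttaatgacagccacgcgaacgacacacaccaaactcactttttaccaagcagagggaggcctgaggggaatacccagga
Notch3, chr17:32166891-32167140, minus strand: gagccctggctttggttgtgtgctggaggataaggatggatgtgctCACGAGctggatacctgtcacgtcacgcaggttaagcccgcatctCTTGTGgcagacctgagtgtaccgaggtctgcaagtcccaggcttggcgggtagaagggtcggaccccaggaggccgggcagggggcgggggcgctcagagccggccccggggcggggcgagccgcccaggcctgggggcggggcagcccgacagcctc

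The Notch3 window held 2 N boxes, starting at positions -204 and -159 from the start site, and the Notch4 and Dll1 windows shown held none. Among windows not shown, those of Dll4 (-75), Notch1 (-108) and Notch2 (-247) also held an N box. Those of Jag1 and Jag2 and the other Dll1 window did not. In 32851 windows of the same length over all genes, 36.7% held at least 1 N box. The letters TGGGAA, the core recognized by RBPJ, CCGGAA, the core of ETS factors, and CACGTG, an E box, were searched on both strands too. Over all windows they were found in 21.6%, 12.03% and 6.02%, and in none of the windows of the 8 members. The GC content was 58.4% for Notch4, 56.0% for the Dll1 window shown and 68.8% for Notch3. A match is only a description of the letters.

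Notch4 was lower in every IK tumor than in any SC tumor. It had 20.02 CPM in the lowest, a median of 21.5 and 22.01 in the highest IK tumor, against 22.7, 23.8 and 28.0 CPM in the SC tumors. The groups thus did not overlap, and the IK tumors lay closer together, with an SD of 0.05 against 0.12 on the log2 scale. The log2 difference was -0.20 with a standard error (SE) of 0.05, or 13.1% lower in the IK group. It did not pass the threshold after Benjamini-Hochberg adjustment over all genes tested (limma, p = 0.0028, adjusted p = 0.43; exact two-sided permutation p = 0.0022). The exact p is the smallest that this design allows and the value that any gene without overlap reaches. Over all genes tested, 0.478% did not overlap between the groups, and by its unadjusted p Notch4 ranked 59 of 14008. In whole tumors, fewer cells of a type and less RNA per cell cannot be told apart.

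Vessel markers did not separate the groups as Notch4 did. Of the 10 endothelial markers, 9 had a lower mean in the IK group, with a median difference of -0.12. Their summed level ran from 298 to 397 CPM in IK tumors and from 281 to 462 CPM in SC tumors, and their score differed by -0.11 (exact permutation p = 0.45). The least abundant of them was Cldn5, at 1.33 log2 CPM in its lowest tumor, so that none was at 0. With the endothelial score as a covariate the Notch4 difference was -0.18, with an SE of 0.05 (limma, adjusted p = 0.40). Leaving out single tumors gave -0.22 (without SC replicate 6) to -0.16 (without SC replicate 5). T cell genes, at a score difference of -1.28, and the 3 tested fat cell markers, at -1.24, also had lower means in the IK group. The part of vessel, T cell or fat cell content in the Notch4 difference was not tested.

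The other 3 receptors overlapped between the groups. Notch1, the broadly used receptor best known in T cell development and endothelium, had 59.7 CPM in the lowest, a median of 70.3 and 75.1 in the highest IK tumor, against 63.7, 67.6 and 75.6 CPM in the SC tumors. Its log2 difference was -0.01 (SE 0.06), and the sign turned to 0.0018 when columns were centered on their median and to 0.027 without IK replicate 5. Notch2, widely expressed and required in kidney development, had 276, 289 and 322 CPM in IK tumors, against 278, 302 and 330 CPM in SC tumors. With a log2 difference of -0.05 (SE 0.05), it was also the member that varied least, by 1.19-fold from the lowest to the highest tumor. Notch3 had 14.4, 17.3 and 19.1 CPM in IK tumors, against 14.1, 17.7 and 21.9 CPM in SC tumors. Its log2 difference of -0.05 (SE 0.11) lay far within the spread between tumors, which at a within-group SD of 0.21 was wider than the median of 0.11 for genes of like level. The limma adjusted p was 0.68 to 0.94 for these 3 receptors.

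**Figure D2:**
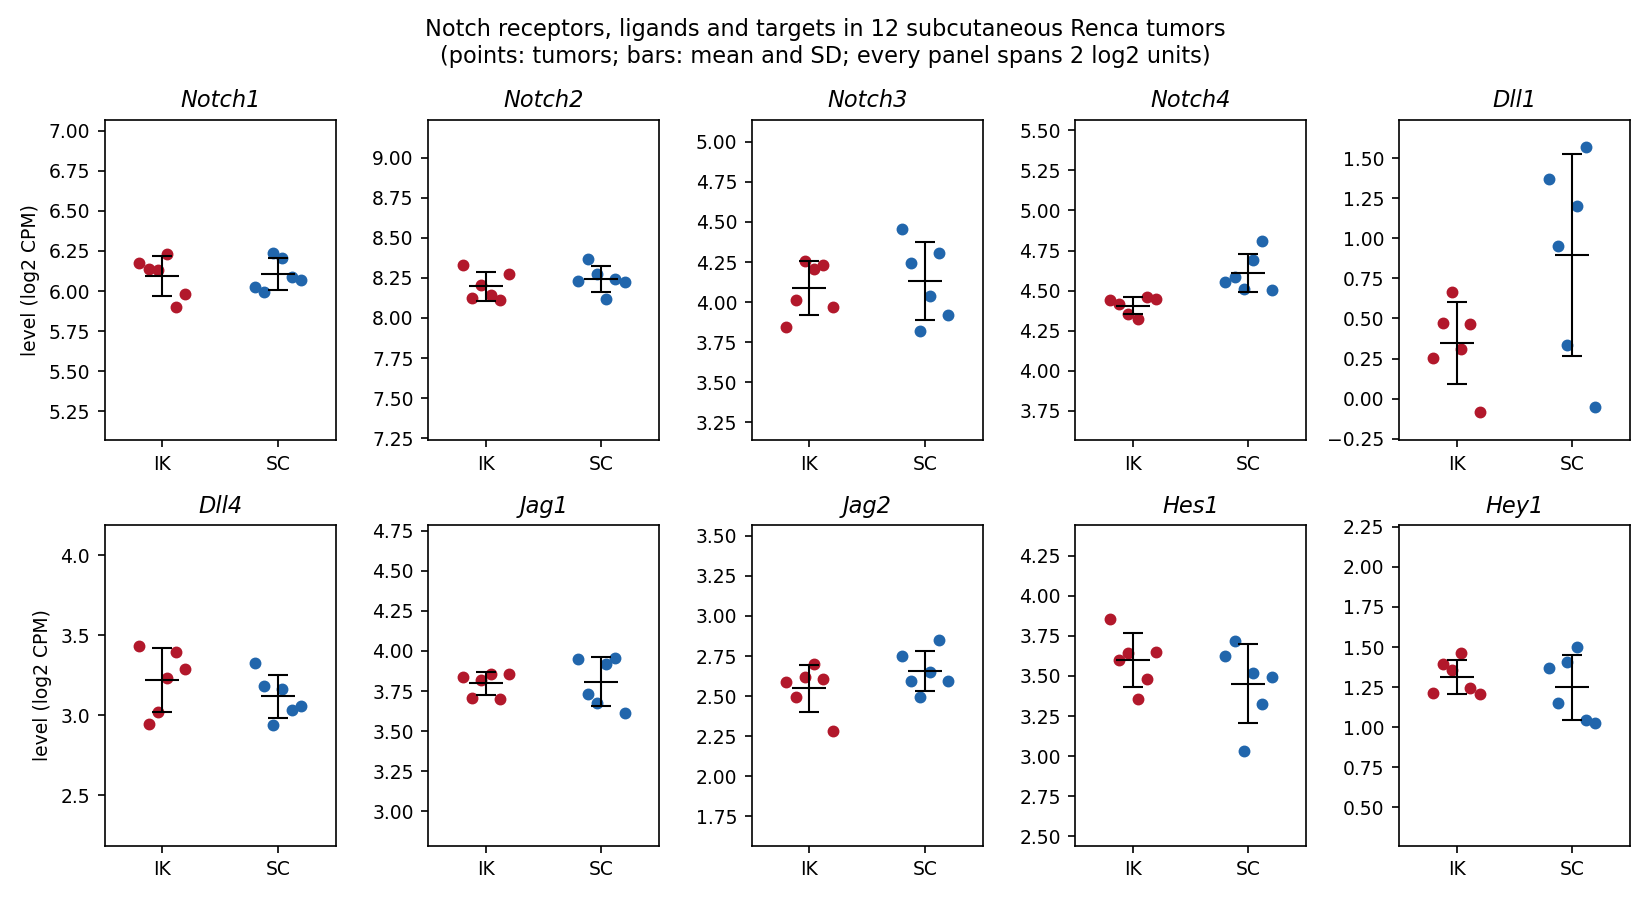
Level of each gene in log2 CPM, with 1 point per tumor, IK tumors in red on the left and SC tumors in blue on the right of each panel; bars give the mean and SD (n = 6 each) and every panel spans 2 log2 units. Notch4 is the panel without overlap, and the SC tumors of Dll1 span 1.6 log2 units.

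Among the ligands, Dll1 had the largest difference and the widest spread. Dll1, a Delta ligand of arterial endothelium and of lymphoid tissue stroma, had 0.942 CPM in the lowest, a median of 1.31 and 1.58 in the highest IK tumor, against 0.965, 2.12 and 2.96 CPM in the SC tumors. SC replicates 1, 2, 4 and 5 lay above all IK tumors, while SC replicates 3 and 6 lay among them. The log2 difference was -0.55 (SE 0.26), which did not pass (limma, p = 0.053, adjusted p = 0.44; exact permutation p = 0.074). It ran from -0.41 without SC replicate 5 to -0.74 without SC replicate 6, and was -0.34 (SE 0.12) with the endothelial score as a covariate (limma, adjusted p = 0.40). Reads numbered 51 in the lowest tumor and 188 in the highest. The within-group SD of 0.48 lay at the 94.1 percentile of tested genes, against a median of 0.29 for genes of like level.

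Dll4, the Delta ligand of sprouting vessels, had a higher mean in the IK group, in the opposite direction to Notch4. It had 7.70, 9.60 and 10.8 CPM in IK tumors (lowest, median and highest), against 7.67, 8.64 and 10.03 CPM in SC tumors, and the groups overlapped. The log2 difference was 0.10 (SE 0.09; limma, adjusted p = 0.64). It was 0.06 without IK replicate 1, the highest tumor, and 0.16 without IK replicate 2.

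Both Jagged ligands overlapped between the groups. Jag1, found in many tissues including vessel walls and epithelium, had 13.0, 14.2 and 14.5 CPM in IK tumors, against 12.2, 14.2 and 15.5 CPM in SC tumors. Its log2 difference of -0.01 (SE 0.07) turned to 0.02 with quantile normalization. Jag2, the second Jagged ligand, had 4.86, 6.05 and 6.50 CPM in IK tumors, against 5.64, 6.16 and 7.22 CPM in SC tumors. IK replicate 6 was the lowest, and the log2 difference of -0.11 (SE 0.08) was -0.055 without it. Limma gave an adjusted p of 0.95 for Jag1 and 0.57 for Jag2.

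The 2 targets had higher means in the IK group without passing the test. Hes1, which encodes a repressor induced by Notch and by other pathways, had 10.2, 12.3 and 14.5 CPM in IK tumors, against 8.16, 11.4 and 13.2 CPM in SC tumors. The log2 difference of 0.15 (SE 0.11; limma, adjusted p = 0.57) rested in part on the lowest tumor, SC replicate 3, and was 0.06 without it. Hey1, the repressor gene induced by Notch in endothelium, had 2.31, 2.46 and 2.76 CPM in IK tumors, against 2.03, 2.40 and 2.83 CPM in SC tumors. Its log2 difference of 0.06 (SE 0.10; limma, adjusted p = 0.79) turned to -0.02 with sample weights.

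Over the 10 genes, 7 had a lower and 3 a higher mean in the IK group, against 46.7% of all tested genes with a lower mean. Signs of Notch1 and Jag1 depended on the scaling, as given above, and those of Notch3 and Hey1 on other settings. The median log2 difference was -0.028 over the 10 genes and 0.0074 over all genes tested. By limma 0 of 10 passed an adjusted p of 0.05, as did 0.0% of all genes. At an unadjusted p under 0.05 there was 1 of 10, Notch4, against 11.5% of all genes (5.62% lower in the IK group), so that the share among the 10 was close to that background. No overlap between the groups was likewise seen for 1 of 10, against 0.478% of all genes (0.2% lower in the IK group). Limma voom on the recovered reads called 0 of 10 and 0 of all genes, with 1711 genes at an unadjusted p under 0.05.

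**Figure D3:**
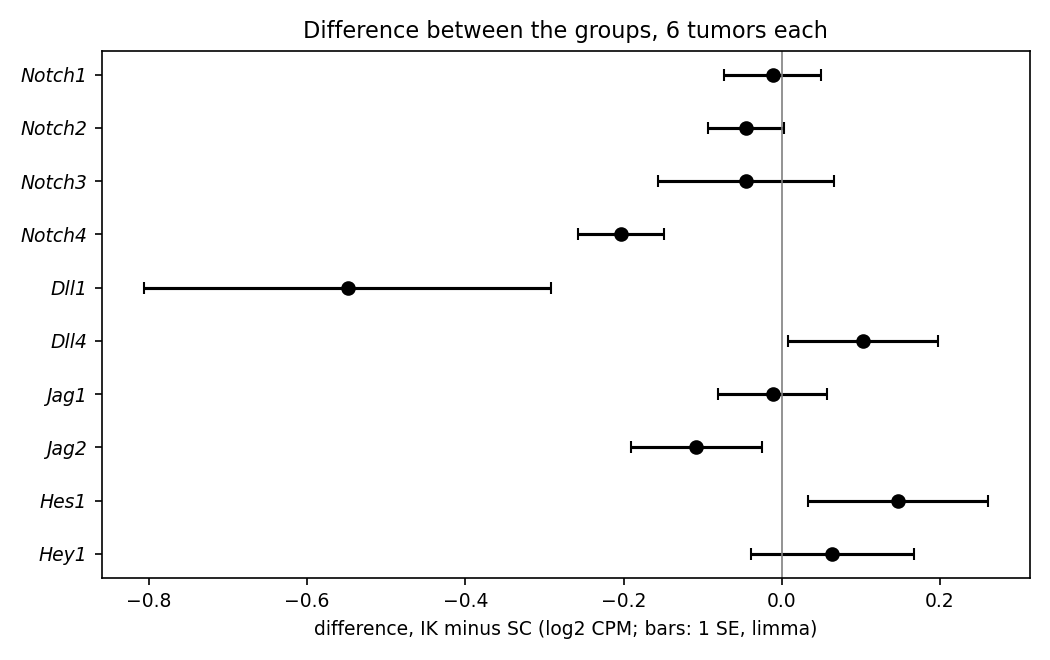
Difference of the group means, IK minus SC, in log2 CPM for each gene, with bars of 1 SE from limma (6 tumors per group). Notch4 (-0.20) has a small difference with a short bar, Dll1 (-0.55) a larger one with a long bar, and Dll4, Hes1 and Hey1 lie to the right of 0.

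Dll1, Notch3 and Jag2 varied with marker scores of stroma cells over the 12 tumors. Each of the 10 genes was set against 8 marker scores, 80 relations in all, of which 5 had a permutation p under 0.05 after Benjamini-Hochberg adjustment. Each score and each gene was read from the same libraries, so these relations name no source cell.

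Dll1 followed the endothelial score most closely, with Pearson r = 0.90 (permutation p = 7e-05, adjusted p = 0.0056) and Spearman rho = 0.90 (permutation p = 0.00013) over 12 tumors. Without the 2 tumors farthest from the median score, SC replicates 5 and 6, r was 0.84. Within the IK group r was 0.74 (exact permutation p = 0.083) and within the SC group 0.98 (exact permutation p = 0.0014). Dll1 also followed the mural score (r = 0.86, adjusted permutation p = 0.013) and the fibroblast score (r = 0.82, adjusted permutation p = 0.030). Its r was 0.73 with the fat cell, 0.64 with the T cell, 0.63 with the skeletal muscle and 0.61 with the macrophage score. By Pearson r none of these passed (adjusted permutation p 0.080 to 0.19). By Spearman the fat cell relation did (rho = 0.80, adjusted permutation p = 0.040). By these r values Dll1 was not particular to vessel and fibroblast markers. It did not follow the epithelial score, with which r was 0.14. With the mural score r was 0.71 without SC replicates 1 and 5, 0.81 within the IK group (exact permutation p = 0.033) and 0.96 within the SC group (exact permutation p = 0.0056). With the fibroblast score r was 0.88 without IK replicate 2 and SC replicate 5 and 0.92 within the SC group (exact permutation p = 0.0083), but 0.58 within the IK group (exact permutation p = 0.22).

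Notch3 followed the mural score, with r = 0.85 (permutation p = 5e-04, adjusted p = 0.013) and rho = 0.87. It was 0.75 without SC replicates 1 and 5, 0.83 within the IK group (exact permutation p = 0.060) and 0.88 within the SC group (exact permutation p = 0.029). With the endothelial score its r was 0.64 (adjusted permutation p = 0.18). With the epithelial score the r of Notch3 was 0.51 (adjusted permutation p = 0.32). That relation was 0.85 within the IK group (exact permutation p = 0.035) and 0.27 within the SC group (exact permutation p = 0.56). Jag2 followed the mural score as well (r = 0.78, adjusted permutation p = 0.035), at 0.60 without the same 2 tumors, 0.87 within the IK group and 0.89 within the SC group. Jag1 had a similar pooled r with the mural score but did not pass (r = 0.75, adjusted permutation p = 0.067). Its r was -0.24 within the IK group and 0.96 within the SC group. Adjusted over all 80, 0 relations passed within either group or without the farthest tumors. Within a group of 6 the exact p cannot fall below 0.0014, and a single relation at that floor could not pass. Dll1 and Jag1 with the endothelial score in the SC group were at the floor (adjusted exact permutation p = 0.056).

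No relation of Notch4 passed. The closest was with the fat cell score, at r = 0.72 (adjusted permutation p = 0.084), 0.29 within the IK group and 0.72 within the SC group. With the T cell score r was 0.65 (adjusted permutation p = 0.16), with the fibroblast score 0.61 (0.19) and with the endothelial score 0.59 (0.21). The last was 0.05 within the IK group and 0.78 within the SC group. Jag1 had r = -0.84 with the endothelial score within the IK group (exact permutation p = 0.026) and 0.97 within the SC group (exact permutation p = 0.0014), and a pooled r of 0.61 (adjusted permutation p = 0.19). Dll4 had a pooled r of -0.11 with the endothelial score, -0.68 within the IK group and 0.41 within the SC group. With the macrophage score the r of Dll4 was -0.60 (adjusted permutation p = 0.21). That relation was -0.87 within the IK group (exact permutation p = 0.0042) and -0.16 within the SC group. Of the 45 pairs among the members themselves 0 passed; the closest was Dll1 with Jag2 (r = 0.74, permutation p = 0.0047, adjusted p = 0.16).

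**Figure D4:**
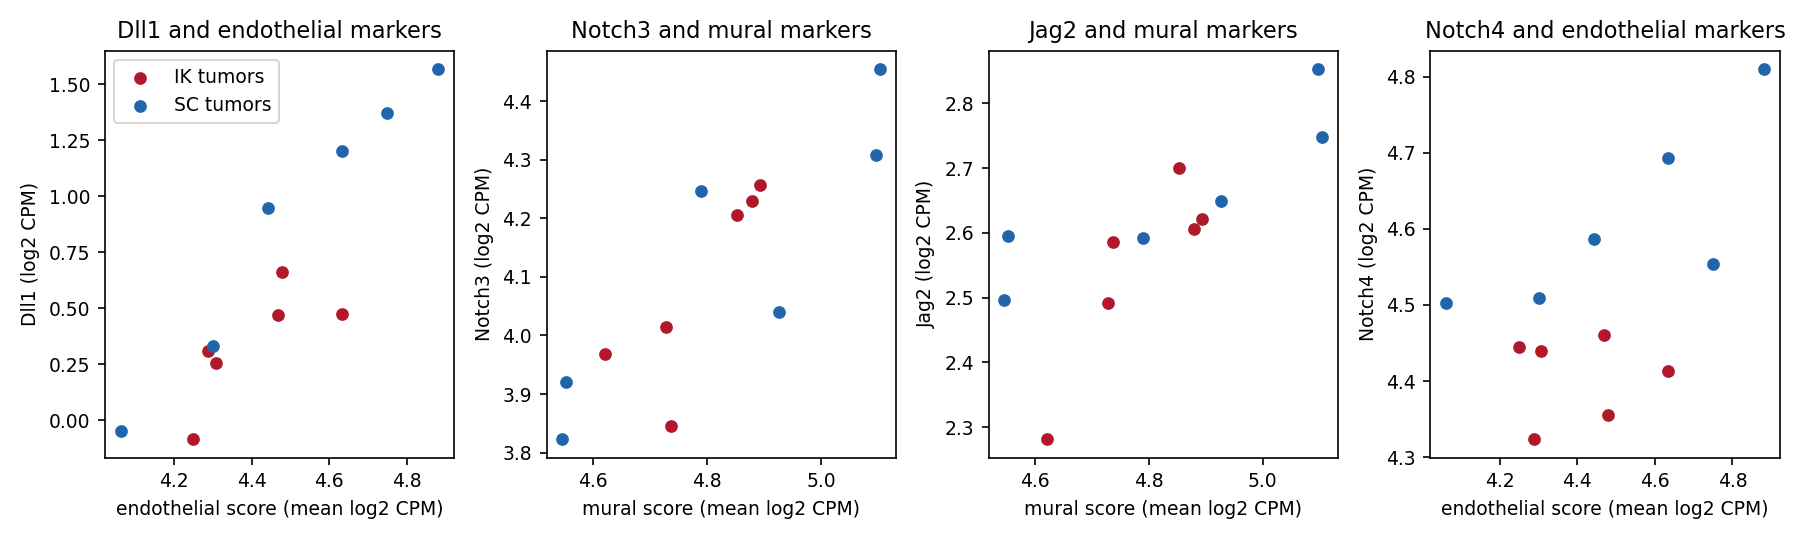
Level of Dll1, Notch3, Jag2 and Notch4 (log2 CPM) against a marker score (mean log2 CPM of the markers) in each tumor, IK tumors in red and SC tumors in blue. Dll1 and Notch3 rise with the score over the 12 tumors pooled (r = 0.90 and 0.85). Their r was 0.74 and 0.83 within the IK group and 0.98 and 0.88 within the SC group. The Notch4 points of the IK tumors all lie below those of the SC tumors.

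The genes most like each member over the 12 tumors were named by Pearson r, as a description. For Dll1 they were Pdgfrb (r = 0.95), the receptor that marks mural cells and fibroblasts, I830077J02Rik (0.94) and the laminin gene Lamb1 (0.94), and 537 tested genes had an r over 0.8. For Notch3 they were Map3k7cl (0.96), the basement membrane collagen gene Col4a1 (0.92) and the smooth muscle kinase gene Mylk (0.90), of 46 such genes. Notch4 was most like Zfc3h1 (0.95), Pnisr (0.93) and Irak1 (0.92), of 79. Those 3 also had lower means in the IK group, by -0.19, -0.21 and -0.07. After the group means were taken out their r was 0.88, 0.84 and 0.83.

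For Dll4 the genes most alike were 4930511M06Rik (r = 0.92), Bik (0.89) and Gpihbp1 (0.85), which encodes a lipase anchor of capillary endothelium. Jag1 was most like Fndc3b (0.89) and the growth factor receptor gene Met (0.87). For Jag2 they were Pla2r1 (0.85), Pkhd1 (0.85) and Pcdh18 (0.83). Notch1 was closest to Rsf1 (0.88), Plagl2 (0.88) and Kansl1 (0.87), and Notch2 to Ripor3 (0.90), Ppox (0.85) and Gpr146 (0.85). Hes1 was closest to C730034F03Rik (0.85), Mutyh (0.85) and the cytokine gene Lif (0.84), and Hey1 to Acbd3 (0.96), Naa60 (0.88) and Tmem273 (0.87).

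Other genes of the pathway were taken from a list of 56, of which 47 were in the table and tested. The 9 absent ones were all 5 other ligands listed (Dll3, Dlk1, Dlk2, Dner and Cntn1), the targets Hes5, Hes7 and Hey2, and the ubiquitin ligase gene Dtx1. Of the 47, 29 had a higher and 18 a lower mean in the IK group, with a median log2 difference of 0.011. By limma 0 passed the adjusted threshold, and 7 (4 higher, 3 lower) had an unadjusted p under 0.05, against 11.5% of all genes.

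Of those 7, 4 were among the 10 tested repressors that act on RBPJ targets and 3 among the 8 tested genes of receptor turnover. Over all genes tested the share was 11.5%. Both sets are small, and no test of the sets was run. The Groucho-type corepressor gene Tle3 differed by -0.14 (SE 0.05). Tle1, another Groucho-type gene, differed by 0.10 (SE 0.05) and the deacetylase gene Hdac1 by 0.07 (SE 0.03), so that members of this set lay on both sides. Limma gave an adjusted p of 0.43 for each of these 3.

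The remaining 3 act on receptor turnover or feedback. Numbl, related to the Notch inhibitor Numb, had 4.94, 5.07 and 5.08 log2 CPM in the lowest, median and highest IK tumor, against 5.09, 5.13 and 5.24 in the SC tumors. It was the single pathway gene among the 47 without overlap, against 0.478% of all genes tested, at a difference of -0.11 (SE 0.04). Nrarp, a Notch target whose product limits the signal, differed by 0.13 (SE 0.06). Fbxw7, which encodes the subunit that marks the cut receptor for degradation, differed by 0.11 (SE 0.05). Limma gave an adjusted p of 0.43 for each.

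In the other roles the largest differences were -0.30 (SE 0.17) for Mfng, a Fringe enzyme that modifies the receptors, and -0.28 (SE 0.16) for Maml2, a coactivator of the RBPJ complex. Among the genes of receptor cleavage it was -0.11 (SE 0.06) for Psen2, a catalytic subunit of the gamma-secretase that cuts the receptors. Heyl, a mural cell target, differed by -0.10 (SE 0.15) and Neurl1b, an enzyme that activates ligands, by 0.04 (SE 0.05). Limma gave adjusted p-values of 0.48 to 0.79 for these 5.

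**Figure D5:**
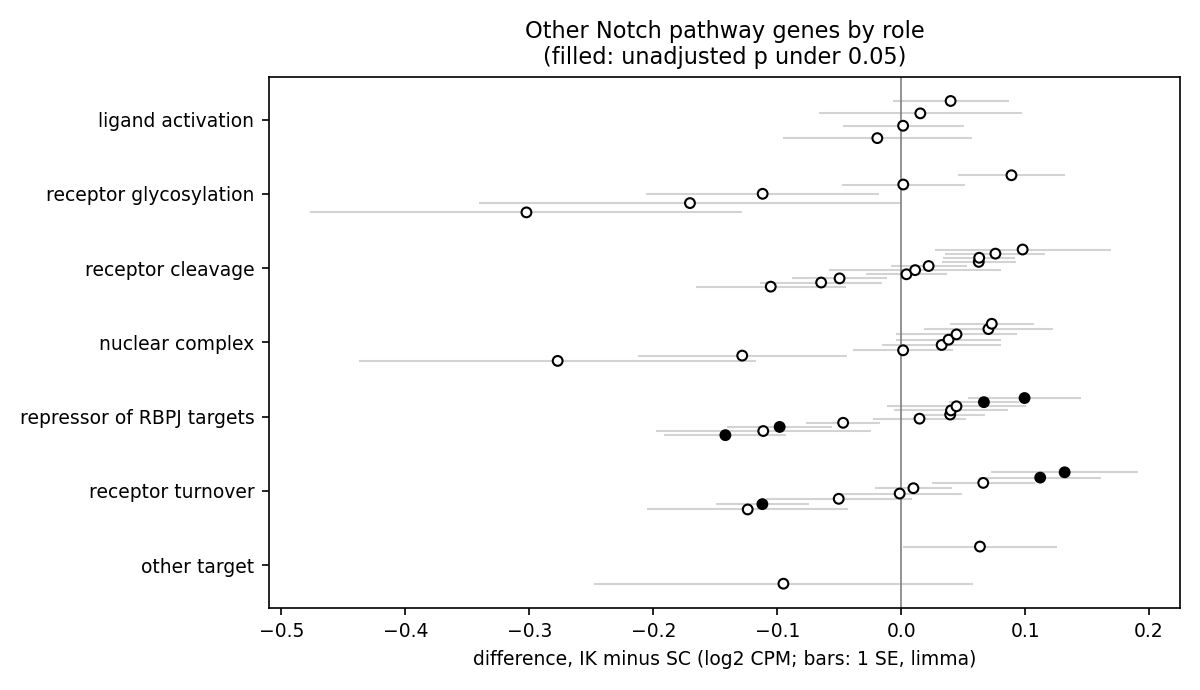
Difference of the group means, IK minus SC, in log2 CPM for the 47 other pathway genes, grouped by role, with bars of 1 SE from limma. Filled points, 7 in all, have an unadjusted p under 0.05; they lie on both sides of 0 and none passed after adjustment.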

How the data were processed

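The authors deposited 1 table of log2 values, 1 column per tumor, made from reads on the mouse build mm9. The tools listed in the submitters' processing notes are limma, HTSeq, TopHat 1.4.1 and CASAVA 1.8.2, without roles. RNA was purified, per the labels' protocols, with a Qiagen RNeasy kit and libraries were made with an Illumina TruSeq RNA kit. Annotation release and strand handling are not given in the sources used here, so reads of a gene and of one overlapping it cannot be told apart. In a newer annotation Notch1, Notch2, Notch3, Dll1 and Dll4 share exon bases with other transcripts that are not rows of the table.

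Taken out of the log2 scale and divided by a constant for each tumor, 100% of the deposited values came within 0.001 of a whole read count plus 0.5. The values thus have the form of the log2 CPM that limma's voom gives, and summed reads gave the depth. Library sizes implied by the constants lay on both sides of the summed reads. They were 57319025 against 58215590 for IK replicate 2 and 58433721 against 57923502 for IK replicate 3. A scaling for each tumor is thus already part of the deposited values, and its method was not tested. Each of the 10 genes had 51 or more reads in each tumor, and counting error is part of the spread given, most of all for Dll1 and Hey1, which had the fewest reads. Symbols came from a newer table by identifier (14004 of 14496 genes matched). Exon lengths came from GENCODE M21, which is built on another genome version than the counts.

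The filter kept genes reaching a log2 CPM of 0 in 6 or more tumors. Group means were compared in R 4.3.3 by limma 3.58.1 (two-sided, empirical Bayes with a variance trend) and Benjamini-Hochberg adjustment over all 14008 genes and no further scaling. The fit was tested on simulated data first. Correlations used 100000 permutations over 12 tumors and all orders within a group. Named are all 10 members, the pathway genes with an unadjusted p under 0.05 or the largest difference of their role, and the 3 genes most like each member, except that some genes that meet these rules are not reported here. The members and lists were chosen with earlier results of these data known.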

Additional observations from a re-analysis of the deposited data

Results flagged for a closer look

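None of the 10 genes had a tumor standing apart from the others of its group by Dixon's 95% critical value for 6 samples. Among 8 marker scores 3 did, of 36 groups of values examined in all; chance alone gives about 1 in 20. IK replicate 2 was far above the other IK tumors in the T cell score, at 3.46 against 1.43 for the next highest. The same tumor was highest in the macrophage score, at 7.99 against 7.80. SC replicate 6 was far below the other SC tumors in the skeletal muscle score, at -1.59 against 4.11 for the next lowest. Without IK replicate 2 the Notch4 difference was -0.20 and the Dll1 difference -0.57, and without SC replicate 6 they were -0.22 and -0.74.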

How the results depend on the processing

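With all tumors limma called 0 genes, and 0 of the 10 members. It called 1 gene without a variance trend. With sample weights, which gave IK replicate 2 the lowest weight (0.32), it called 545 genes, 1 of the 10 (Notch4, -0.19, adjusted p = 0.047) and 1 of 47 other pathway genes (Nrarp, 0.17, adjusted p = 0.049). Leaving out single tumors gave 0 to 171 genes, the 171 without IK replicate 2, and 0 of the 10 members and 0 of the 47 in each case. The Notch4 adjusted p was 0.085 to 0.77 in those fits. Differences of Notch4, Dll1, Dll4, Notch2, Jag2 and Hes1 kept their direction in every alternative run; the stricter filter removed Dll1. Signs turned for Notch1 with median centering (0.0018), for Jag1 with median centering (0.0017), quantile normalization (0.022) or the endothelial covariate (0.022), for Notch3 with that covariate (0.015) and for Hey1 with sample weights (-0.015). With single tumors left out Notch1 ranged from -0.039 to 0.027, Notch3 from -0.107 to 0.019 and Jag1 from -0.050 to 0.018; the cause was not tested. The replicate block called 0 genes, with Notch4 at -0.20 (adjusted p = 0.44). Same-numbered tumors did not pair (correlation of their deviations -0.31 to 0.45), and 1 of 12 tumors correlated best with its own number. Of 5 marker relations, 0 passed without the 2 farthest tumors, within the IK group or within the SC group, where fewer tumors entered. Within a group the exact p has a floor of 0.0014, at which a single relation could not pass. Planned count models on recovered reads other than limma voom were not run, because the deposited unit is log2.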
